A study of Mus musculus with 8 samples.

Results

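The 34 genes described here are those of the B cell lineage and its antibody-secreting end stage, of the survival factors BAFF and APRIL with their receptors, and of the lymphotoxins with the receptors that guide lymphocytes into lymphoid tissue. They were chosen by name, with earlier results of these data known. Of the 34, 32 had a row on the array, each with a single probe, among 19505 named genes in all. Cd38 and Tnfsf13, the APRIL gene, were not analysed here. The 32 measured genes comprised 15 of the B lineage, 8 of plasma cells, 4 of the BAFF and APRIL system and 5 of lymphotoxin and homing. The samples were kidney total RNA of NZBWF1 mice, the first-generation hybrid of New Zealand Black and New Zealand White mice and a model of spontaneous lupus nephritis, hybridised to 1-colour Clariom S Mouse arrays. There were 4 mice aged 8 weeks, numbered 1 to 4 in the labels, and 4 aged 28 weeks, numbered 6 to 9. No treatment, transgene or sex is given in the labels. All 8 mice were of this strain, so age and the progress of its disease cannot be told apart. Values are log2 expression values after robust multi-array averaging (RMA), and a difference is the 28-week mean minus the 8-week mean on that scale.

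B cells recognise antigen through a membrane immunoglobulin that signals through the CD79A and CD79B chains. Activated B cells may enter germinal centres, a programme held by the repressor BCL6, or mature into plasma cells under BLIMP-1 (Prdm1), IRF4 and XBP1 and secrete antibody. BAFF, released mainly by myeloid and stromal cells, keeps B cells alive mainly through BAFF-R and also binds TACI and BCMA. Lymphotoxins made by lymphocytes act on stromal LTBR to organise lymphoid tissue, and such tissue can form in the kidneys of lupus-prone mice. In whole kidney RNA, more cells of a type and more RNA per cell cannot be told apart.

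2 arrays stood apart from the others of their age. On the first principal component, 39.4% of the variance, 28-week replicate 7 lay at -12.9, within the 8-week range of -39.5 to -7.66, while the other 28-week arrays lay at 31.8 or above. On the second, 25.1% of the variance, 8-week replicate 1 lay at 65.1 and the other 7 arrays between -27.8 and 15.3. Values without 28-week replicate 7 are therefore given below for the counts and for some of the members. Many of the lineage-defining probes were dim. Of the 32 members, 13 lay in the lowest 25% of all probes by mean value and 22 in the lowest 50%. The defining B cell genes Ms4a1, Cd79a, Cd79b, Pax5 and Cd22 stood at percentiles 17.8, 17.6, 20, 12.4 and 5.98 of probe brightness. The arrays gave no detection call, so the brightness of these markers did not establish B cells in the kidneys of either age. Small differences in dim probes were hard to measure.

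Most members had a somewhat higher mean at 28 weeks, and 1 passed the test. Bcl6 rose 3.14-fold. No member passed as lower, though 7 of 32 had a negative difference. The median difference of the 32 members was 0.25, against -0.01 for all 22206 probes, and 25 of 32 (78.1%) had a positive difference, against 48.4% of all probes. Tested with limma, with p-values adjusted by the Benjamini-Hochberg method over the whole array, 1 of 32 members (3.12%) had an adjusted p under 0.05, against 0.968% of all probes. At an unadjusted p under 0.05, 7 of 32 members (21.9%) were higher at 28 weeks, against 8.36% of all probes, and 0 were lower. All 4 mice of 28 weeks lay above all 4 of 8 weeks in 3 of 32 members (9.38%), namely Bcl6, Jchain and Sdc1, against 4.38% of all probes. The reverse order was seen in 0 members and in 4.33% of all probes. Without 28-week replicate 7, 3 of 32 members passed the same threshold, Bcl6, Bank1 and Jchain, against 5.57% of all probes.

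**Figure D1:**
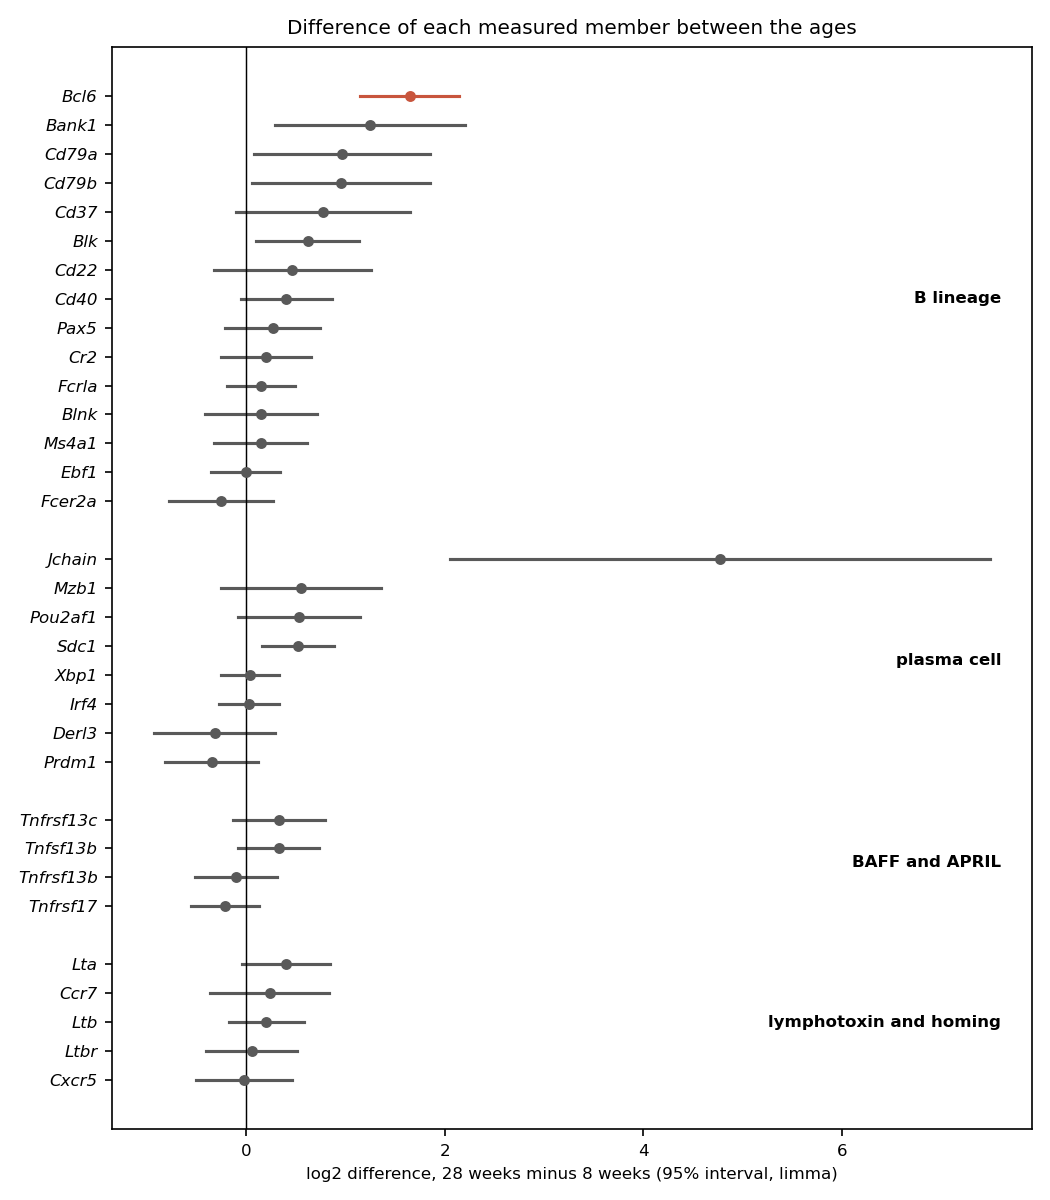
Difference between the ages for each of the 32 measured members on the log2 scale, 28 weeks minus 8 weeks, with the 95% interval from limma, grouped by role. Bcl6, in colour, is the 1 member with an adjusted p under 0.05, and Jchain has the largest difference, 4.77, with an interval from 2.05 to 7.49.

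Bcl6 encodes the zinc-finger repressor of germinal centre B cells, which is also expressed outside the B lineage. Its value was 6.76, 5.69, 5.89 and 6.35 in 8-week replicates 1 to 4. It was 7.82, 7.99, 7.67 and 7.81 in 28-week replicates 6 to 9. The 28-week mice lay within 0.32 of each other and all above the 8-week mice, with replicate 7 at the top. The mean was 6.17 ± 0.48 at 8 weeks and 7.82 ± 0.13 at 28 weeks (SD, n = 4), a difference of 1.65 with a 95% interval of 1.15 to 2.15 (limma, adjusted p = 0.0167). The call ended without 8-week replicate 3 (adjusted p = 0.06) or 4 (0.0543), or without 28-week replicate 8 (0.0526) or 9 (0.0759), while the difference stayed between 1.49 and 1.85 in all 15 alternatives. Replicate 7 stood 1.82 above the 8-week mean for Bcl6. It was the lowest 28-week mouse in 6 of 15 B lineage genes (40%), against 25% of all probes. Ms4a1, Cd79b, Cd22 and Bank1 were among those 6. In Cr2, Blk, Pax5 and Cd79a it lay above the 8-week range, at 4.68, 5.23, 3.97 and 3.73.

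Windows of 25 of the 32 members, with 30 start sites, were read from the RefSeq promoter table (GRCm38.p6). The remaining members were not searched, whether or not the table held them. The 250 bases before the annotated starts of Bcl6, Bank1 and Jchain are shown because these genes passed the threshold in at least 1 fit. They were searched on both strands for 4 short motifs, and the capitals mark the matches, none of which overlap: ATGCAAAT, the octamer of POU factors, CACGTG, an E-box, TTCNNNGAA, a pair of half-sites of the kind bound by STAT proteins and BCL6, and GAGGAA, the core of a PU box.
Bcl6 first start, chr16:23988853-23989102, minus strand: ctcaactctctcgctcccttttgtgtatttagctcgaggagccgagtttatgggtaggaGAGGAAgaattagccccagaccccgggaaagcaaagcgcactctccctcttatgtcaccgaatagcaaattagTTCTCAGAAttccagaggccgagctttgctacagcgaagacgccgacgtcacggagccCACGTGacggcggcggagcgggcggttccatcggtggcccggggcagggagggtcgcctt
Bcl6 second start, chr16:23981284-23981533, minus strand: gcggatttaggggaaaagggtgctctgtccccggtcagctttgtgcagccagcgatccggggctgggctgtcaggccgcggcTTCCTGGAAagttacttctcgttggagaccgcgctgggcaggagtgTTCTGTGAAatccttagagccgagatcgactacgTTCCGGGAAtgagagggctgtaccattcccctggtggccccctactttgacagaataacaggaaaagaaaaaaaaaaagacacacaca
Bank1, chr3:136326067-136326316, minus strand: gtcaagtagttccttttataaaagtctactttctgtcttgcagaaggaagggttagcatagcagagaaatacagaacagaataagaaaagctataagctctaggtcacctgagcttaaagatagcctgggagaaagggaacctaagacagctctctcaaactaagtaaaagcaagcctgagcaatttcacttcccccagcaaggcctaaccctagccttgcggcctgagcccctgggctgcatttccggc
Jchain, chr5:88527898-88528147, minus strand: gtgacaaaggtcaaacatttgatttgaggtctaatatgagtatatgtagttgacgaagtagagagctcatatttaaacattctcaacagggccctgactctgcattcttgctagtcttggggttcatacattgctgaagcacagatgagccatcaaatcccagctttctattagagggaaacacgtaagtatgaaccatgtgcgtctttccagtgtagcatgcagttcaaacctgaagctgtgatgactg
The first Bcl6 window held 1 match each to CACGTG, TTCNNNGAA and GAGGAA, and the second held 3 matches to TTCNNNGAA. Of 32851 promoter windows of this length in the table, 7.02% held TTCNNNGAA, 6.02% CACGTG, 23.3% GAGGAA and 1.6% the octamer. Among the 30 member windows searched, the numbers were 4, 4, 12 and 1, the octamer in that of Blnk. The member windows were not matched to the 32851, and their numbers were not tested against those shares. None of the 4 motifs stood in the windows of Bank1 and Jchain. A match is a string of letters and no evidence of binding.

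Among the signalling components of the B cell receptor, the means were higher at 28 weeks through replicates 6, 8 and in part 9. Cd79a, a signal chain of the receptor, was 3.07, 3.70, 3.68 and 3.47 in the 8-week mice and 5.59, 3.73, 4.84 and 3.62 in 28-week replicates 6 to 9. Replicates 6 and 8 stood above every 8-week mouse by over 1 unit, and replicates 7 and 9 were near them. The difference was 0.97 with a 95% interval of 0.08 to 1.85 (limma, adjusted p = 0.284), and 0.58 without replicate 6 (adjusted p = 0.502). Without replicate 7 it was 1.20 (limma, adjusted p = 0.139). Cd79b, the partner chain, was 3.56, 4.13, 3.45 and 3.26 in the 8-week mice and 5.80, 3.57, 4.32 and 4.54 in the 28-week mice. Here replicates 6, 8 and 9 lay above the 8-week mice and replicate 7 among them (difference 0.96, limma adjusted p = 0.296, 0.54 with adjusted p = 0.494 without replicate 6, and 1.29 with adjusted p = 0.0715 without replicate 7).

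Bank1, a scaffold that couples the receptor to calcium release, had the second largest difference of the B lineage genes. It was 5.32, 5.29, 5.83 and 5.71 at 8 weeks and 7.90, 5.42, 7.14 and 6.67 at 28 weeks. Replicates 6, 8 and 9 exceeded all 8-week mice and replicate 7 did not. The fold was 2.37 over all mice (limma, adjusted p = 0.192) and 3.25 without replicate 7 (adjusted p = 0.0079). The log2 difference of 1.25 became 0.87 without replicate 6 (limma, adjusted p = 0.374) and 1.13 without replicate 8 (limma, adjusted p = 0.391). Of the 15 alternatives, only the 2 that left out replicate 7 called it. Blk, a Src-family kinase of B cells, differed by 0.62 (4.32 ± 0.32 at 8 weeks and 4.95 ± 0.42 at 28 weeks, limma adjusted p = 0.232). Blk went with neither pattern, since replicates 6 and 7 were highest, at 5.36 and 5.23, and 1 8-week mouse reached 4.79. The adaptor gene Blnk was 9.13 ± 0.56 and 9.28 ± 0.18 in turn, and its highest value, 9.96, was that of 8-week replicate 1.

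**Figure D2:**
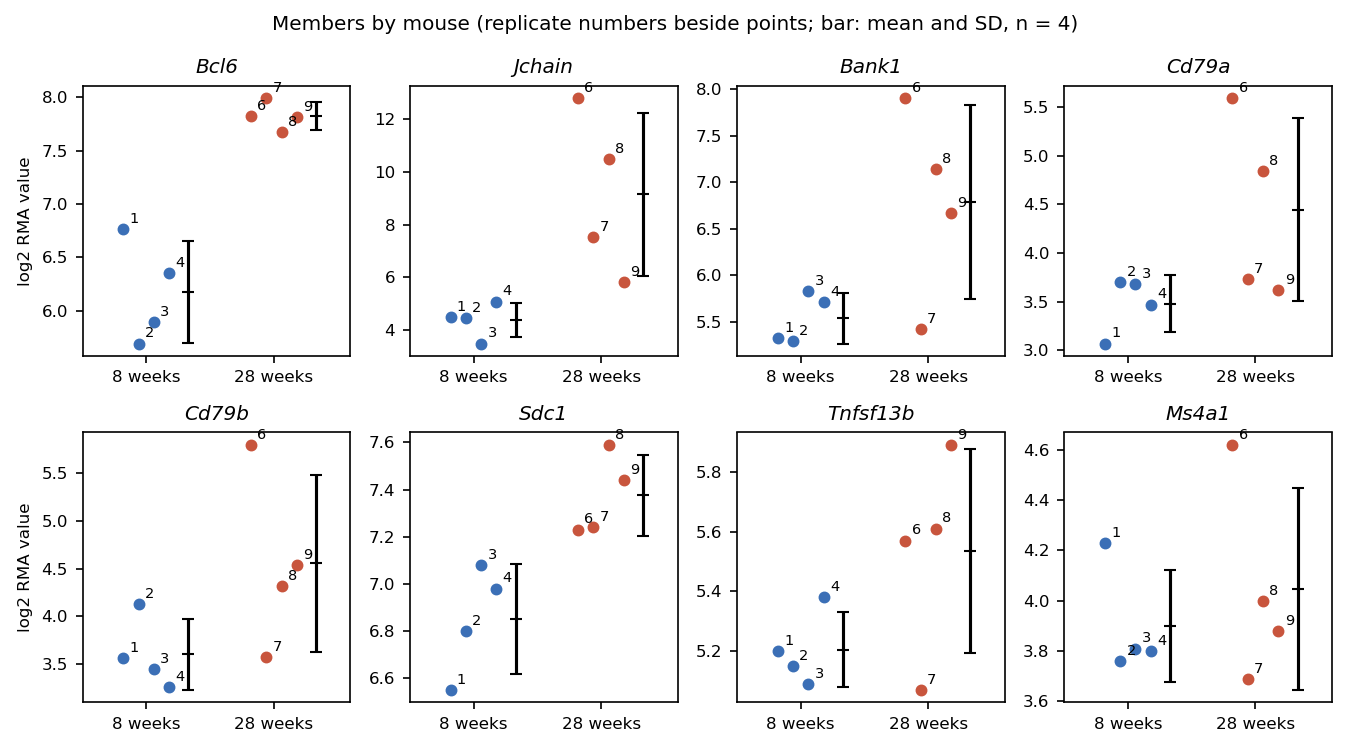
Log2 RMA value of 8 members in each mouse, with replicate numbers beside the points and the mean and SD (n = 4) of each age as a black bar. Bcl6 is uniformly high at 28 weeks, Jchain spreads from 5.83 to 12.79, and in Bank1, Cd79b and Tnfsf13b replicate 7 lies within or below the 8-week range.

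Among the surface proteins of mature B cells, 1 to 3 of the 28-week mice stood above the 8-week range in the next 4 genes, and none passed the threshold. Ms4a1, the gene of CD20, was 3.76 to 4.23 at 8 weeks and 4.62, 3.69, 4.00 and 3.88 in 28-week replicates 6 to 9. Replicate 6 alone exceeded the 8-week range, and without it the difference of 0.15 became -0.04. Cd22, an inhibitory lectin of B cells, was 3.01 to 3.26 at 8 weeks and 4.83, 2.86, 3.43 and 3.24 at 28 weeks, with replicates 6 and 8 above that range (limma, adjusted p = 0.616). The tetraspanin gene Cd37 was 4.24 to 4.37 at 8 weeks and 6.36, 4.37, 5.37 and 4.29 at 28 weeks, so that replicates 6 and 8 carried its difference of 0.78 (limma, adjusted p = 0.399). Cd40, the receptor for T cell help that antigen-presenting cells also carry, had 28-week values of 6.67, 5.66, 6.01 and 6.12 against 5.51 to 5.81 at 8 weeks. Replicates 6, 8 and 9 were above that range (difference 0.41, limma adjusted p = 0.402).

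The other surface genes had small or negative differences. Cr2, the complement receptor of B cells and follicular dendritic cells, was highest in replicate 7, at 4.68, and lowest at 28 weeks in replicate 6, at 3.75 (difference 0.20, 95% interval -0.25 to 0.66). Fcer2a, the low-affinity IgE receptor, had a difference of -0.25 (95% interval -0.78 to 0.28), and Fcrla, an intracellular Fc receptor-like protein, one of 0.16 (-0.19 to 0.50). The lineage factors had small differences. Pax5 was 3.29 to 3.80 at 8 weeks and 3.35 to 4.33 at 28 weeks (difference 0.27, 95% interval -0.21 to 0.74). Ebf1, which stromal and vascular cells also express, was 10.50 ± 0.21 and 10.50 ± 0.17 (difference -0.00, 95% interval -0.35 to 0.35).

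Jchain, which encodes the chain that joins polymeric IgA and IgM, had the largest difference of all members and the largest spread. The 8-week values were 4.49, 4.47, 3.49 and 5.08. The 28-week values were 12.79, 7.52, 10.47 and 5.83 in replicates 6 to 9. All 28-week mice lay above all 8-week mice, but they spanned 6.96 log2 units, and the lowest was 0.75 above the highest 8-week mouse. Means and SDs were 4.38 ± 0.66 for the young and 9.15 ± 3.09 for the old mice, a 27.3-fold ratio with a 95% interval of the log2 difference of 2.05 to 7.49 and no call (limma, adjusted p = 0.0971). Without replicate 7 it passed the threshold (difference 5.31, adjusted p = 0.0449), and without both that mouse and 8-week replicate 1 it did not (5.35, adjusted p = 0.0707). The log2 difference of 4.77 was 3.56 without replicate 6 and 5.88 without replicate 9. Over the 15 alternatives the adjusted p ran from 0.0449 to 0.246.

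The genes that accompany Jchain in plasma cells had smaller measured differences. Mzb1, an endoplasmic reticulum chaperone of antibody secretion, was 3.30 to 3.59 at 8 weeks and 5.31, 3.58, 3.81 and 3.36 at 28 weeks. Replicate 6 was the 1 mouse clearly above the 8-week range (difference 0.55, limma adjusted p = 0.548). Pou2af1, the coactivator OCA-B, was 3.05 to 3.73 at 8 weeks and 4.31, 3.52, 4.65 and 3.53 at 28 weeks, with replicates 6 and 8 above that range (difference 0.54, limma adjusted p = 0.41). The probes of Mzb1 and Pou2af1 were dim, at percentiles 13.1 and 13 of brightness. RMA compresses the folds of dim probes, so the sizes of their differences cannot be set directly against that of Jchain. Sdc1, the plasma cell antigen CD138 that epithelia also express, was 6.55, 6.80, 7.08 and 6.98 at 8 weeks and 7.23, 7.24, 7.59 and 7.44 at 28 weeks. Its groups did not overlap, replicate 7 included, and the gap between them was 0.15. The difference of 0.52 had a 95% interval of 0.16 to 0.88 (limma, adjusted p = 0.15).

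The transcription factors of plasma cell differentiation had differences near or below 0, none past the threshold. Prdm1, the gene of BLIMP-1, was 4.24 to 4.98 at 8 weeks and 3.97 to 4.70 at 28 weeks (difference -0.34, 95% interval -0.81 to 0.13). Irf4 was 3.37 to 3.50 and 3.36 to 3.74, at percentile 7.95 of probe brightness. Xbp1, which every secretory epithelium uses, was bright at 14.10 ± 0.08 and 14.15 ± 0.13, a difference of 0.05 with a 95% interval of -0.25 to 0.34. Derl3, a factor of endoplasmic reticulum degradation, was 4.84 to 5.49 and 4.01 to 5.41 (difference -0.31, 95% interval -0.92 to 0.29). Over the 8 plasma cell genes 6 differences (75%) were positive, against 48.4% of all probes, and 0 passed the threshold, against 0.968%. At an unadjusted p under 0.05, 2 (25%) were higher, Jchain and Sdc1, against 8.36% of all probes. The median was 0.28, and 0.07 without 28-week replicate 6.

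The BAFF system showed 0 calls of 4 genes, against 0.968% of all probes. Tnfsf13b, which encodes BAFF, was 5.20, 5.15, 5.09 and 5.38 at 8 weeks and 5.57, 5.07, 5.61 and 5.89 at 28 weeks. Replicates 6, 8 and 9 stood above every 8-week mouse and replicate 7 below them all. The difference was 0.33 with a 95% interval of -0.08 to 0.74, so that a fall of more than 0.08 and a rise of more than 0.74 lay outside it (limma, adjusted p = 0.452, and 0.131 without replicate 7). The same mice, replicates 6, 8 and 9, were high in the macrophage and monocyte markers described below, and the part of those cells in it was not tested. Among the receptors, Tnfrsf13c, the gene of BAFF-R, was 4.89 to 5.49 and 5.07 to 5.78 (difference 0.34, 95% interval -0.13 to 0.80). Tnfrsf13b, the gene of TACI, had a difference of -0.10 (-0.51 to 0.31). Tnfrsf17, the gene of BCMA, the receptor of long-lived plasma cells, was 3.69 to 3.95 at 8 weeks and 3.66, 3.94, 3.49 and 3.42 at 28 weeks. Its difference was -0.21 (-0.55 to 0.13), and replicates 6 and 8, where Jchain was highest, were not higher than the 8-week mice. The probes of TACI and BCMA were dim, at percentiles 13.2 and 13 of brightness.

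The lymphotoxin and homing genes also gave 0 calls of 5, with 0 at an unadjusted p under 0.05. Of all probes, 0.968% were called and 8.36% were higher at that unadjusted p. Lta, the soluble lymphotoxin chain, was 4.86 to 5.79 at 8 weeks and 5.63 to 6.00 at 28 weeks, with replicate 7 at 5.65 close to the others (difference 0.40, 95% interval -0.04 to 0.85, limma adjusted p = 0.393). Ltb, the membrane chain, was 4.64 to 4.99 and 4.71 to 5.27 (difference 0.20, 95% interval -0.17 to 0.58). Ltbr, the receptor gene of the membrane form, which stromal and epithelial cells express, was bright, at 11.05 ± 0.32 and 11.11 ± 0.29 (difference 0.06, 95% interval -0.40 to 0.51). Ccr7, the receptor that leads lymphocytes and dendritic cells to T cell zones, was 7.21 ± 0.58 and 7.45 ± 0.25, and both its extremes, 6.66 and 7.83, were in 8-week mice. Cxcr5, which leads B cells to follicles, was 3.37 to 3.96 and 3.28 to 4.15, with a difference of -0.02 (95% interval -0.50 to 0.46). In each of the 5 genes, 28-week replicate 7 lay within the 8-week range.

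The members differed from mouse to mouse at 28 weeks more than at 8 weeks. The SD was larger at 28 weeks in 23 of 32 members (71.9%), against 41.9% of all probes, with a median SD of 0.25 at 8 weeks and 0.37 at 28 weeks. This was not particular to the members. In the marker lists described below, that share was 92.3% for macrophages and monocytes, 100% for pan-leukocyte markers, 80% for T cells and 62.5% for kidney tubule. Replicate 6 was the highest 28-week mouse in 20 of 32 members (62.5%), against 25.6% of all probes, and in 13 of 15 B lineage genes. The exceptions there were Bcl6 and Cr2, with replicate 7 on top in both. Replicate 6 was also the highest in 76.9% of the macrophage and monocyte markers, 100% of the pan-leukocyte, 60% of the T cell and 25% of the kidney tubule markers. Replicate 7 lay within the 8-week range in 19 of 32 members (59.4%), against 65.5% of all probes. The 3 other 28-week mice all lay above the 8-week range in 7 of 32 members (21.9%), against 9.47% of all probes. Those 7 were Cd79b, Bank1, Bcl6, Cd40, Jchain, Sdc1 and Tnfsf13b. The mean level of the 15 B lineage genes over their 8-week mean was 1.11, 0.21, 0.47 and 0.28 in replicates 6 to 9, and that of the 8 plasma cell genes 1.50, 0.35, 1.01 and 0.05. Jchain weighed heavily in the plasma cell level. In replicate 7 it stood 3.14 above its 8-week mean, while the median over the 8 plasma cell genes was 0.01. For the BAFF genes it was 0.17, -0.05, 0.24 and -0.02, within or close to the 8-week range of -0.10 to 0.25. The median B lineage difference was 0.41 with all mice, 0.22 without replicate 6 and 0.53 without replicate 7.

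**Figure D3:**
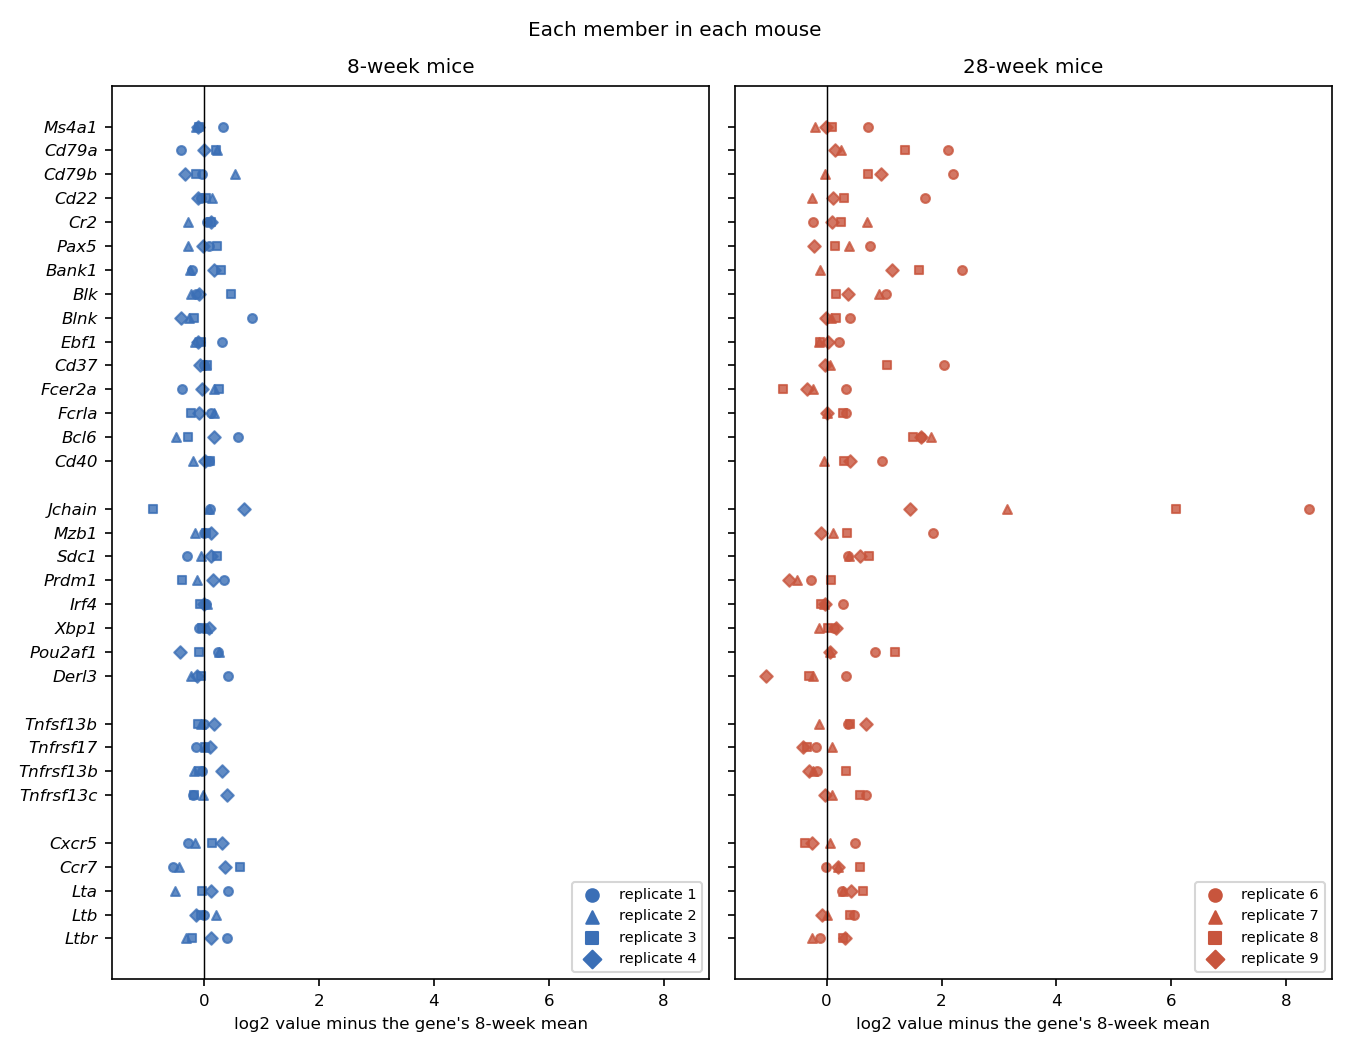
Each member in each mouse as the log2 value minus the 8-week mean of that gene, with 8-week mice on the left and 28-week mice on the right and a marker shape for each replicate. The 28-week points spread further to the right, with replicate 6 the highest in 20 of 32 members, and in Bcl6 the 28-week mice lie close together above all 8-week mice.

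Other genes of the same pathways were read from lists of known pathway members. Of 22 measured genes of B cell receptor signalling, 1 passed, Dapp1, an adaptor that binds phosphoinositides at the membrane, which was 4.63 ± 0.74 at 8 weeks and 6.52 ± 0.51 at 28 weeks (limma, adjusted p = 0.0465). That is 4.55% of the list, against 0.968% of all probes. Of the 22, 20 (90.9%) had a positive difference, against 48.4% of all probes, the median was 0.43, and 12 (54.5%) were higher at an unadjusted p under 0.05, against 8.36%. Many of these genes are shared with myeloid cells, among them Syk, Btk, Vav1 and Pik3ap1, and the level of the list was 1.40, 0.05, 1.07 and 0.90 in replicates 6 to 9. Cd72, a B cell and macrophage receptor named here after its values were seen, was 6.54 to 7.31 at 8 weeks and 11.42, 7.31, 10.63 and 10.14 in replicates 6 to 9 (limma, adjusted p = 0.0865).

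Of 16 listed immunoglobulin genes only the 4 of the surrogate light chain, Igll1 and Vpreb1 to Vpreb3, were measured, and the constant regions were not analysed here. They had 0 calls and 0 at an unadjusted p under 0.05, with differences from -0.27 to 0.34. Of all 22206 probes, 48.4% had a positive difference and 0.968% were called. At that unadjusted p, 8.36% of all probes were higher and 1472 probes were lower. The smallest p of the 4 were those of Vpreb1 and Igll1 (limma, adjusted p = 0.618 and 0.673). The 18 genes of the secretory machinery of plasma cells, such as chaperones and endoplasmic reticulum degradation factors that tubule cells also use, had a median difference of 0.02, with 10 positive and 8 negative. None passed, 1 was higher and 2 were lower at an unadjusted p under 0.05, and the smallest p were those of Slamf7, a surface receptor of plasma cells and other leukocytes (1.55, limma adjusted p = 0.197), and Eaf2, an elongation factor partner (-0.49, adjusted p = 0.236).

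All 6 measured genes of the non-canonical NF-kappa-B pathway, which BAFF-R and LTBR engage, had a positive difference, against 48.4% of all probes. Their median was 0.67. Their level over the 8-week mean was 0.95, 0.09, 0.78 and 0.99 in replicates 6 to 9, against -0.43 to 0.37 at 8 weeks. Replicate 7 was the lowest 28-week mouse in 5 of the 6 (83.3%), against 25% of all probes. It lay within the 8-week range in 5 (83.3%), against 65.5% of all probes. None of the 6 genes passed the threshold, against 0.968% of all probes. At an unadjusted p under 0.05, 4 (66.7%) were higher, against 8.36% of all probes. The smallest p were those of the adaptor Traf2 (0.76, limma adjusted p = 0.17) and of Nfkb2, the precursor of p52 (0.90, adjusted p = 0.207). Among 16 genes of lymphoid tissue organisation 14 differences (87.5%) were positive, against 48.4% of all probes, and the median was 0.23. Of the 16, 1 passed (6.25%, against 0.968% of all probes), the adhesion molecule gene Vcam1 (2.62, limma adjusted p = 0.0423). Vcam1 was 8.01 in replicate 7, above the 8-week range of 6.75 to 7.44, and 10.17 to 10.44 in the other 28-week mice. Cxcl13, the ligand of CXCR5, is named here after its values were seen. It was 6.26 to 7.02 at 8 weeks and 12.95, 7.18, 11.58 and 8.10 in replicates 6 to 9, while Cxcr5 itself stayed in the dim range given above.

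Markers of other cell types were read in the same mice, and none passed the threshold. Of all 22206 probes, 0.968% passed and 48.4% had a positive difference. At an unadjusted p under 0.05, 8.36% of all probes were higher and 1472 probes were lower. The difference was positive in all 13 macrophage and monocyte markers, with a median of 1.76, 0 calls and 12 at an unadjusted p under 0.05, and their level over the 8-week mean was 3.22, 0.08, 2.69 and 2.60 in replicates 6 to 9 against -0.22 to 0.25 at 8 weeks. The smallest p were those of Lyz2, a lysozyme gene, and of C1qa, a complement chain (limma, adjusted p = 0.0607 and 0.0901). The 6 pan-leukocyte markers had levels of 2.89, -0.12, 2.40 and 1.97 in the same order, 0 calls and 5 at an unadjusted p under 0.05, with the smallest p in Laptm5 and Cd53 (limma, adjusted p = 0.0897 and 0.0969). The 10 T cell markers had 0.75, 0.13, 0.73 and 0.45, with 9 of 10 differences positive, 0 calls, 5 at an unadjusted p under 0.05 and the smallest p in Cd3e and the costimulator Icos (limma, adjusted p = 0.105 and 0.2). The 8 dendritic cell markers, 6 of them in the lowest 25% of brightness, had levels of 0.34, 0.08, 0.29 and 0.36, 0 calls and 1 at an unadjusted p under 0.05, Xcr1, followed by Itgax (limma, adjusted p = 0.127 and 0.346). The 8 neutrophil markers had 0.20, 0.14, 0.31 and 0.16, 0 calls and 1 at an unadjusted p under 0.05, Csf3r, followed by Ngp (limma, adjusted p = 0.0853 and 0.666). The 8 kidney tubule markers were at -0.18, 0.12, -0.38 and -0.37, with 0 calls, 4 lower and 1 higher at an unadjusted p under 0.05 and the smallest p in Slc5a2 and Slc12a1 (limma, adjusted p = 0.0606 and 0.0916). The 6 endothelial markers were at 0.56, -0.11, -0.09 and 0.18, with 0 calls, 1 higher and 1 lower at an unadjusted p under 0.05, Cdh5 and Kdr (limma, adjusted p = 0.166 and 0.184).

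Some members departed from the macrophage order. Replicate 9, with a macrophage level of 2.60, had the lowest 28-week Jchain, at 5.83, and Cd79a of 3.62, within the 8-week range. Replicate 7, with a macrophage level of 0.08, had Jchain at 7.52, above replicate 9 and above all 8-week mice, and Bcl6, Blk and Cr2 at 7.99, 5.23 and 4.68. In Cd40, Bank1, Cd79b and Tnfsf13b, as in the macrophage markers, replicate 7 was lowest at 28 weeks, and in Bank1 the order of all 4 mice was that of the macrophage level. The part of leukocyte number in any of these values was not tested.

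**Figure D4:**
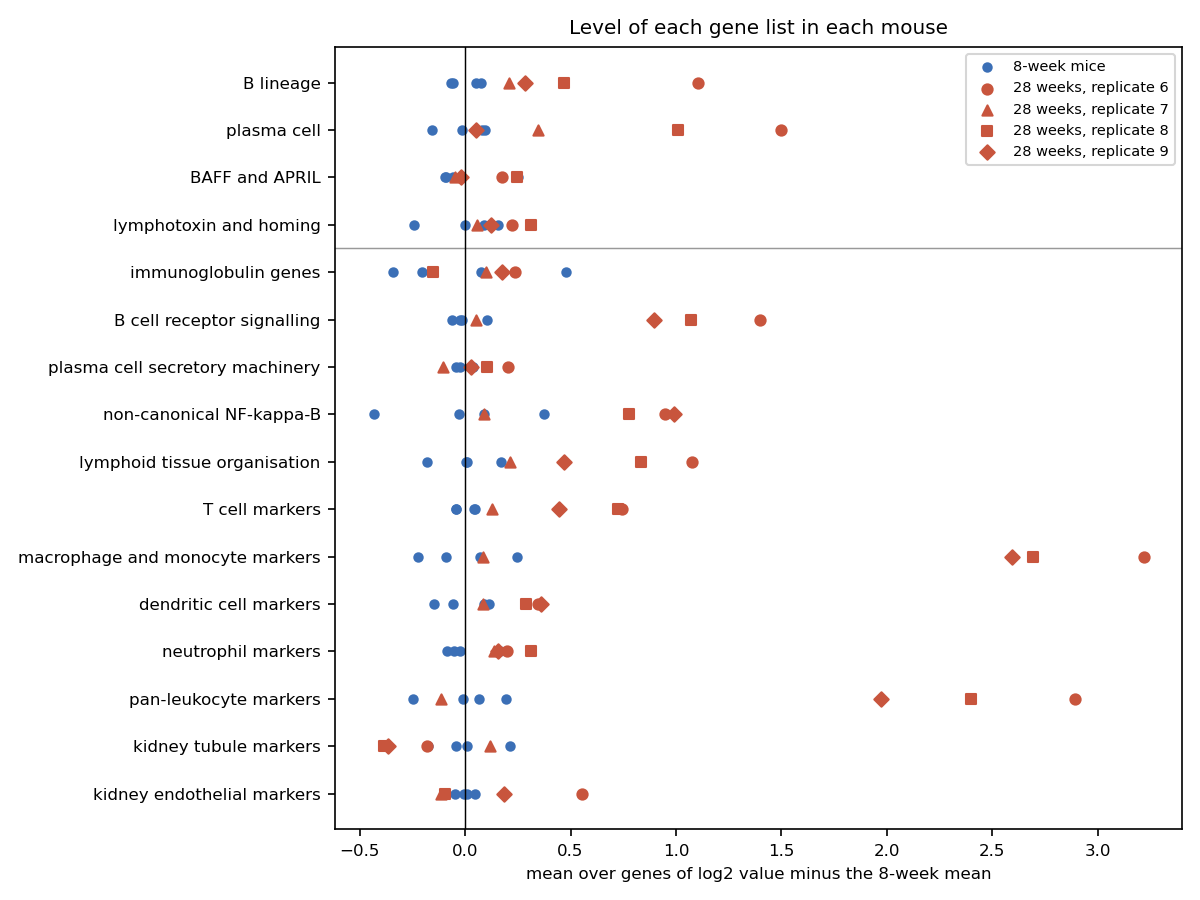
Level of each gene list in each mouse, as the mean over its genes of the log2 value minus the 8-week mean, with the 4 groups of members above the line and the other lists below it. Macrophage and pan-leukocyte markers reach 1.97 or more in replicates 6, 8 and 9 and stay at or below 0.25 in all other mice. Replicate 6 lies furthest out in the B lineage and plasma cell genes, and also in the macrophage, pan-leukocyte and T cell markers. The BAFF genes stay close to 0. Jchain, with the largest difference of the plasma cell genes, weighs heavily in their level.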

How the data were processed

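Kidney RNA of 8 mice was measured on 8 arrays. The authors deposited 1 table of log2 expression values made with RMA, per the submitters' processing notes. RMA corrects background, normalizes between arrays, summarises probes and compresses folds of dim probes. Its software and settings were not stated, nor was the log base, which was taken as 2 because values ran from 2.31 to 19.89, and every fold rests on it. All 22206 probes entered 1 limma fit (lmFit, eBayes; limma 3.58.1 in R 4.3.3) of 28 weeks minus 8 weeks, Benjamini-Hochberg adjusted, threshold 0.05. No batch was stated in the labels. Each array was taken as 1 mouse from the series design, so p-values measure the spread between mice. The platform annotation gave 19572 probes a symbol and 2634 none. Members and lists were chosen with earlier results of these data known. All measured members are named, and of each other list up to 4 members past the threshold or, with none, the 2 of smallest p. A list level, the mean over genes of the value minus the 8-week mean, has no test. The fit was tested on simulated data. Alternatives were 3 scalings, leaving out the dimmest 33.3% of probes, other variance models, array weights, a stricter threshold, an unmoderated test and left-out arrays. Averaging probes of a gene was not run, since each member had 1. Tables and plots were made in Python 3.11.15 (pandas 2.3.3, matplotlib 3.10.9).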

Additional observations from a re-analysis of the deposited data

Results flagged for a closer look

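In 64 groups of 4 mice, 1 for each member and age, 2 held a mouse far from the other 3 of its age, and chance gives about 1 in 20. Ms4a1 was 4.23 in 8-week replicate 1 and 3.76 to 3.81 in the other 8-week mice, a gap of 0.894 of the range. Irf4 was 3.74 in 28-week replicate 6 and 3.36 to 3.42 in the other 28-week mice, a gap of 0.842 of the range. Both probes were dim.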

How the results depend on the processing

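The 8 arrays, their probe brightness and the absence of a detection call limit every value. Of all probes 215 were called, and 399 with trend and robust eBayes, 873 with array weights, 18 at an adjusted p under 0.01, 1384 without both 8-week replicate 1 and 28-week replicate 7, 94, 36, 30 and 26 without 8-week replicates 1 to 4, and 56, 1237, 28 and 25 without 28-week replicates 6 to 9. The number of members called was 1 under 6 alternatives to scaling, filter and variance model, 0 without 8-week replicate 3 or 4 or 28-week replicate 8 or 9, 3 without 28-week replicate 7, 1 without each other array, 2 without both arrays (Bcl6 and Bank1) and 0 at an adjusted p under 0.01. It was 0 of all probes and 0 of the members in the unmoderated test with unequal variances, where 2568 probes and 2 members had an unadjusted p under 0.05. The BAFF and APRIL median of 0.12 was 0.33 without the dimmest probes, which left 2 of its 4 members. Members near 0 changed sign, each without a call. Ebf1 was 0.054 with array weights and 0.147 without both arrays, Irf4 and Xbp1 were -0.029 and -0.016 and Ltbr -0.004 with array medians, and Cxcr5 was 0.01 after quantile normalization. With 1 array left out the ranges were -0.043 to 0.267 for Ms4a1, -0.077 to 0.102 for Ebf1, -0.053 to 0.073 for Irf4, -0.245 to 0.005 for Tnfrsf13b, -0.193 to 0.097 for Cxcr5 and -0.046 to 0.191 for Ltbr. No paired analysis was possible because the ages share no replicate number.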
